A study of Mus musculus with 6 samples.

Results

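Gene expression in injured skeletal muscle was compared between 2 times of day, zeitgeber time (ZT, hours after lights on) 16 and ZT4, in the cells collected on day 3 after the injury. The cells were mononucleated cells of the tibialis anterior muscles of both hindlimbs of wildtype mice injured with cardiotoxin, a snake venom peptide that lyses muscle fibres, and dead cells stained by propidium iodide were excluded during sorting. Each of the 6 groups of the study (day 0, 1 or 3 at ZT4 or ZT16) was captured as 1 droplet library, so the comparison is of 1 library with 1 library. The labels used here give no age and do not say how many animals a library holds. With no replicate, no difference below has a test or a p-value. Each interval is an exact 95% interval that covers counting error only.

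Cells were placed in 3 sets by fixed rules on a few genes, and the counts of unique molecular identifiers (UMIs) were summed within each set and library. The Csf1r set held cells with at least 1 UMI of Csf1r, the receptor for the growth factor CSF1 that marks monocytes and macrophages. The Pdgfra set held cells with at least 1 UMI of Pdgfra, a receptor of fibro-adipogenic progenitors, and 0 UMIs of the leukocyte gene Ptprc. The myogenic set held cells with at least 5 UMIs of Cdh15, Myog and Myod1 together and at most 1 of Ptprc. In all, 13484 of 17660 day 3 cells that passed the quality limits fell in at least 1 set, out of 64032 such cells in the 6 libraries. The Csf1r set had 6243 cells at ZT4 and 5655 at ZT16, the Pdgfra set 432 and 347, and the myogenic set 617 and 447. The sets were not exclusive, since 143 cells at ZT4 and 114 at ZT16 were in more than 1. The share of myogenic cells that were also in the Csf1r set was 14.4% at ZT4 and 16.1% at ZT16.

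Muscle repair passes through a macrophage phase, in which monocyte-derived cells clear debris and signal to stromal and muscle stem cells. Fibro-adipogenic progenitors build temporary matrix, and satellite cells leave quiescence, divide as myoblasts and then switch on Myog and fuse. Most cells also carry a circadian clock, in which the activators Arntl (BMAL1) and Clock switch on the Per and Cry genes, whose proteins then block the activators.

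The day 3 ZT4 library held 132221721 UMIs in 9930 barcodes and the ZT16 library 109537133 in 8626. The median depth per cell was 11930 and 11855 UMIs in the Csf1r set, 22094 and 22976 in the Pdgfra set, and 45966 and 44125 in the myogenic set. The libraries shared 24 barcodes among the kept cells. The summed level of 10 macrophage markers in the Csf1r set was 25410.5 at ZT4 in CPM (UMIs of a gene scaled to a fixed total of 1e6 UMIs per set and library) and 23439 at ZT16, against 129 to 191 CPM in the other sets. For 10 fibro-adipogenic markers the sum in the Pdgfra set was 25588 and 22802 CPM, against 202 to 976 CPM elsewhere. For 10 myogenic markers it was 1878 and 1852 CPM in the myogenic set, against 53.7 to 185 CPM elsewhere, so each set matched its name by markers that its rule did not use. None of these 30 markers was at 0 in any set.

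Genes were counted as shifted when their CPM differed at least 1.5-fold between the libraries, among genes with at least 100 UMIs in the 2 libraries together. In the Csf1r set 285 of 12608 genes (2.26%) were higher at ZT16 and 375 (2.97%) lower. In the Pdgfra set 313 of 9480 (3.3%) were higher and 229 (2.42%) lower. In the myogenic set 593 of 10354 (5.73%) were higher and 57 (0.551%) lower. The balance in the myogenic set was one-sided, and its all-gene median log2 ratio was 0.10, against -0.01 in the Csf1r set and 0.01 in the Pdgfra set. Centring the myogenic ratios on that median left 375 genes higher and 107 lower.

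Of the 8678 genes with enough UMIs in every set, 26 (0.3%) were higher at ZT16 in all 3 sets and 13 (0.15%) lower in all 3. These 39 genes fell into a few kinds. Among the genes higher at ZT16 were 2 transcripts of a list of genes that often mark differences between libraries, Gm42418 and Lars2, a group of interferon-responsive genes, and a few with no common list. Among the lower genes were 1 histone gene (Hist1h2ap), 1 mitochondrially encoded gene (mt-Nd4l) and 1 gene, Wdr89, of that same list of library marks. The cells that entered none of the sets, 2339 at ZT4 and 1837 at ZT16, gave a check outside the rule. There, 17 of the 24 higher genes that could be measured were at least 1.5-fold higher at ZT16, against 5.77% of 10805 genes measured in those cells, and 23 lay above 0, against 57.4%. Of the 13 lower genes, 11 were at least 1.5-fold lower, against 1.8%, and 13 lay below 0, against 42.6%.

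**Figure D1:**
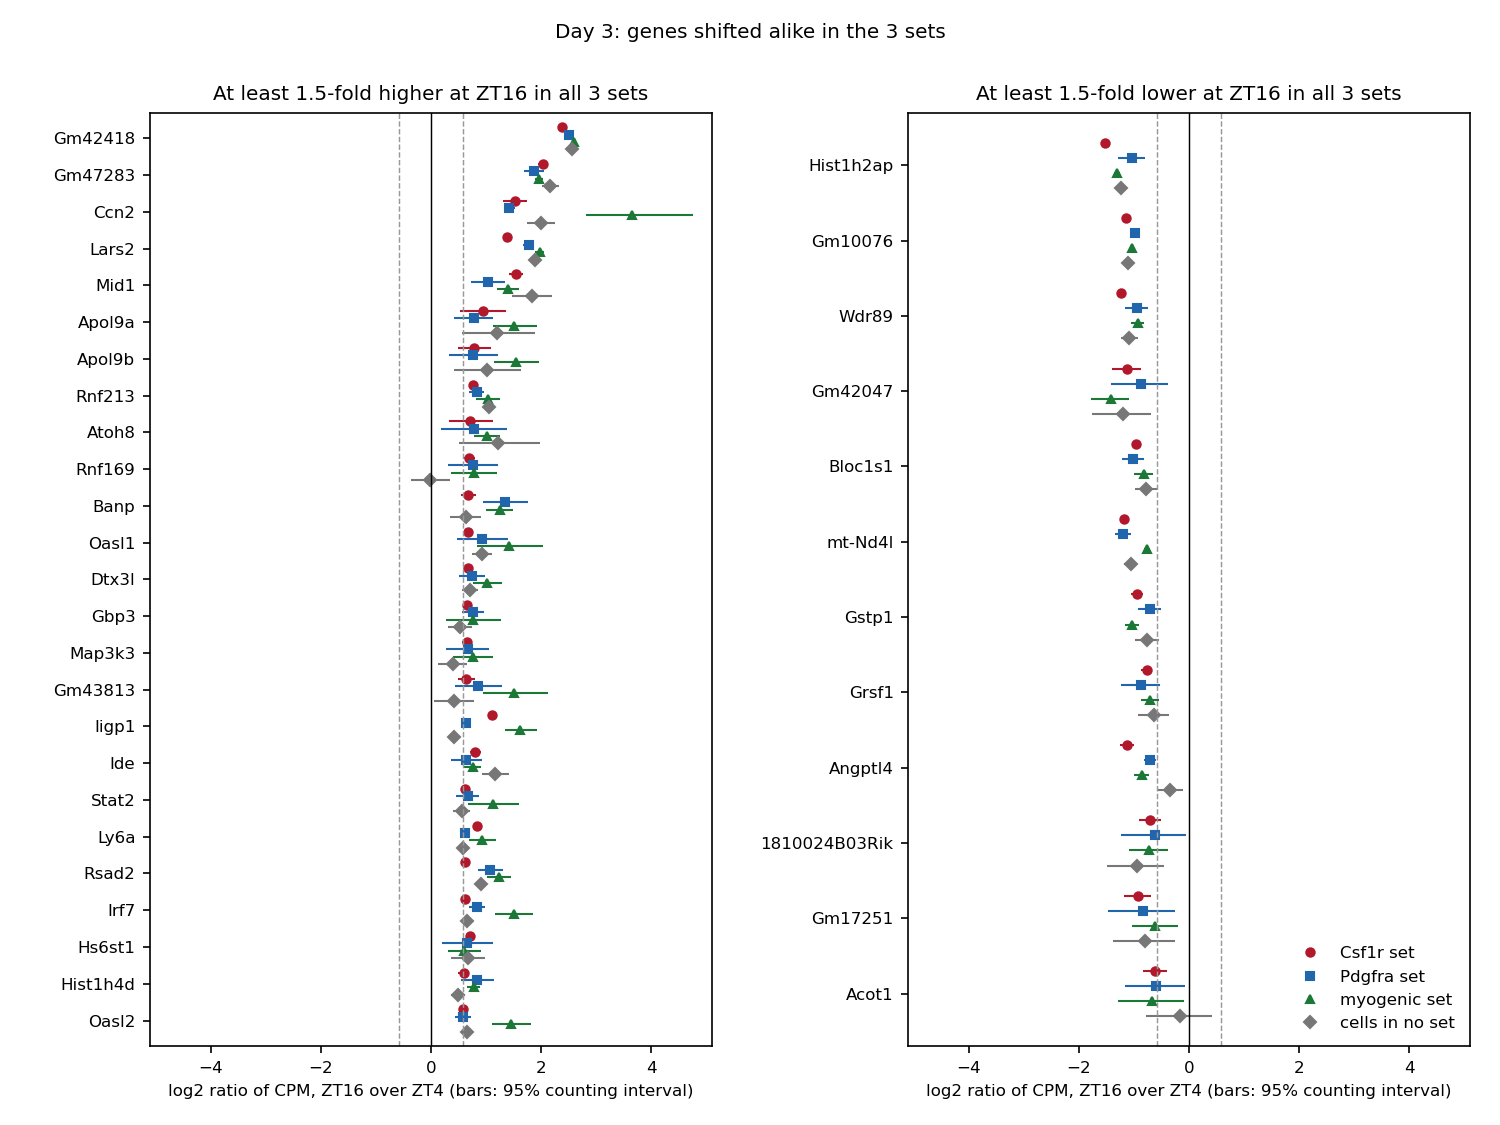
The log2 ratio of CPM at ZT16 over ZT4 on day 3 is plotted for 25 of the 26 genes higher (left) and 12 of the 13 genes lower (right) in all 3 sets, with 1 marker per set, grey diamonds for cells in no set, bars for the 95% counting interval and dashed lines at 1.5-fold. Grey diamonds follow the coloured markers for most genes, and Rnf169 (-0.01) lies at 0 outside the sets.

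Gm42418 (ENSMUSG00000098178, GRCm38 chr17:39846958-39848788), a noncoding model that overlaps ribosomal RNA sequence, had the highest level of the 26. Its level was 9359 CPM at ZT4 and 48684 at ZT16 in the Csf1r set, 4283 and 24352 in the Pdgfra set, and 2124 and 12886 in the myogenic set. The log2 ratios of 2.38, 2.51 and 2.60 differed little between sets, and cells in no set gave 2.56. On day 0 the same ratio was between 0.17 and 0.43, and on day 1 between 0.03 and 0.34, so the size seen on day 3 was not met in the other pairs of libraries. Lars2 (chr9:123366927-123462666), which encodes the mitochondrial leucyl-tRNA synthetase, went from 207 to 540 CPM, from 104 to 355 and from 59.2 to 233 CPM in the same order of sets. Its log2 ratios were 1.38 (interval 1.36 to 1.41), 1.78 (1.67 to 1.88) and 1.98 (1.90 to 2.06). On day 0 they were 0.24, 0.37 and 0.42, and on day 1 they were -0.13 in the Csf1r set and -0.24 in the Pdgfra set. AY036118, another model in ribosomal RNA sequence, was 196 and 340 CPM in the Csf1r set (log2 0.80) but under 1.5-fold in the Pdgfra (0.48) and myogenic (0.50) sets.

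Since CPM values share 1 total, a transcript of this abundance lowers the CPM of all others. With Gm42418 left out of the totals, an alternative chosen after seeing the data, 377 genes were higher and 288 lower in the Csf1r set.

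Mid1 (chrX:169685199-170005736), a microtubule-associated ubiquitin ligase, was 8.56 and 25.1 CPM in the Csf1r set, 14.1 and 28.9 in the Pdgfra set, and 11.9 and 31.4 in the myogenic set. Gm47283 (chrY:90784738-90816464), named here after its values were seen, was 14.8 and 60.5, 31.3 and 115, and 70.4 and 274 CPM. Its log2 ratios of 2.04, 1.87 and 1.96 had near equals on day 1, at 2.02 in the Csf1r set and 2.26 in the Pdgfra set, but not on day 0 (0.81 and 0.68). Mid1 was 1.55, 1.03 and 1.40 on day 3, 0.77 and 0.15 in the Csf1r and Pdgfra sets on day 1, and 0.16, 0.16 and -0.23 in the 3 sets on day 0. Of 6 sex-linked genes in a separate list, 4 were measured, and 0 of these passed 1.5-fold in any set on day 3.

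Ccn2 (chr10:24595442-24598683), a secreted matrix-associated protein whose gene responds to mechanical signals, was 121 CPM at ZT4 and 324 at ZT16 in the Pdgfra set, where it was most abundant. It was 2.86 and 8.22 CPM in the Csf1r set and 0.416 and 5.44 in the myogenic set, from 11 and 99 UMIs. The log2 ratios were 1.52 (1.31 to 1.75), 1.42 (1.32 to 1.52) and 3.65 (2.81 to 4.76). It was also higher at ZT16 on day 0 in the Csf1r set (1.17) and the Pdgfra set (1.67) but not in the myogenic set (-0.83). On day 1 it was also higher in the Csf1r set (1.605), while the Pdgfra set gave 0.18. The day 0 libraries also differed in cell division genes, as given with the clock genes below.

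Some genes higher in all 3 sets belong to none of these groups. Banp, a nuclear matrix-associated protein, was 9.08 and 14.6 CPM in the Csf1r set, 7.76 and 19.8 in the Pdgfra set, and 8.43 and 20.1 in the myogenic set (log2 0.68, 1.35 and 1.25). Atoh8, a basic helix-loop-helix factor, was 10.1 and 20.4 CPM in the myogenic set (1.02), with 0.72 and 0.78 in the others. Ide, the insulin-degrading enzyme, was 24.0 and 40.6 CPM in the myogenic set (0.76), with 0.81 and 0.64. Rnf169, a ubiquitin ligase gene of DNA repair, had ratios of 0.69, 0.76 and 0.78 in the sets but -0.01 in cells outside them.

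Interferon-responsive genes made up the largest group with a known common stimulus. Interferon binds its receptor and activates transcription factors that enter the nucleus, bind the interferon-stimulated response element and switch on antiviral genes. Of the 26 genes shifted up alike, 6 were in a list of 26 interferon-response genes, among them the transcription factors Stat2 and Irf7, the radical-SAM antiviral enzyme Rsad2, and the oligoadenylate synthetase-like genes Oasl1 and Oasl2. Others of the 26 known to respond to interferon but outside that list were Iigp1 and Gbp3, which encode GTPases, Rnf213, Dtx3l, Ly6a, Apol9a and Apol9b.

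Stat2 was 59.7 CPM at ZT4 and 92.1 at ZT16 in the Csf1r set, 33.8 and 53.7 in the Pdgfra set, and 2.53 and 5.55 in the myogenic set, with log2 ratios of 0.63, 0.67 and 1.13. Irf7, which amplifies the response, was 288 and 440, 63.0 and 113, and 4.23 and 12.04 CPM, with log2 ratios of 0.61, 0.84 and 1.505. Its counting intervals were 1.17 to 1.85 in the myogenic set and 0.59 to 0.64 in the Csf1r set. They treat UMIs as independent, and a difference between sets was not tested.

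Rsad2 was 205 and 315 CPM in the Csf1r set, 24.9 and 52.7 in the Pdgfra set, and 10.4 and 24.5 in the myogenic set (log2 0.62, 1.08 and 1.24). Oasl2 lay just inside the threshold, with log2 ratios of 0.59 in both the Csf1r and Pdgfra sets. Isg15, a ubiquitin-like protein that is conjugated to other proteins during the response, lay just outside it. It was 573 and 909 CPM in the Csf1r set, 344 and 507 in the Pdgfra set and 22.9 and 65.1 in the myogenic set, and its ratio of 0.56 in the Pdgfra set fell short of 1.5-fold. Iigp1 was 33.3 and 72.1, 163 and 255, and 5.52 and 17.0 CPM. Apol9a and Apol9b (log2 0.95 and 0.79 in the Csf1r set, 0.78 and 0.77 in the Pdgfra set, 1.52 and 1.55 in the myogenic set) are near-identical copies, so how reads were divided between them is uncertain.

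Across the whole list, 25 of 26 genes were found by symbol in the count matrix. At least 30 UMIs were counted for 25 of them in the Csf1r and Pdgfra sets and 24 in the myogenic set. At least 1.5-fold higher at ZT16 were 10 of 25 in the Csf1r set (median log2 0.47), 14 of 25 in the Pdgfra set (0.67) and 23 of 24 in the myogenic set (1.25), and 0 were 1.5-fold lower in any set. The shares higher over all genes with at least 100 UMIs were 2.26%, 3.3% and 5.73%. All 24 genes measured in the 3 sets lay above 0 in each, against 3362 of 10930 genes (30.8%) overall. Cells in no set gave a median of 0.64, with 14 of 25 at least 1.5-fold higher.

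The members were not moved equally. Ifi44 went from 12.9 to 43.5 CPM in the Csf1r set (log2 1.75), more than any other list member there. Cxcl10, a chemokine that attracts T cells and NK cells, went from 447 to 496 CPM in the Csf1r set (0.15) but from 105 to 270 in the Pdgfra set (1.37). Ifit1 was 116 and 160 CPM in the Csf1r set and 105 and 211 in the Pdgfra set (0.47 and 1.01). Ifitm3, which blocks virus entry at membranes, had ratios of 0.35, 0.26 and 0.02.

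**Figure D2:**
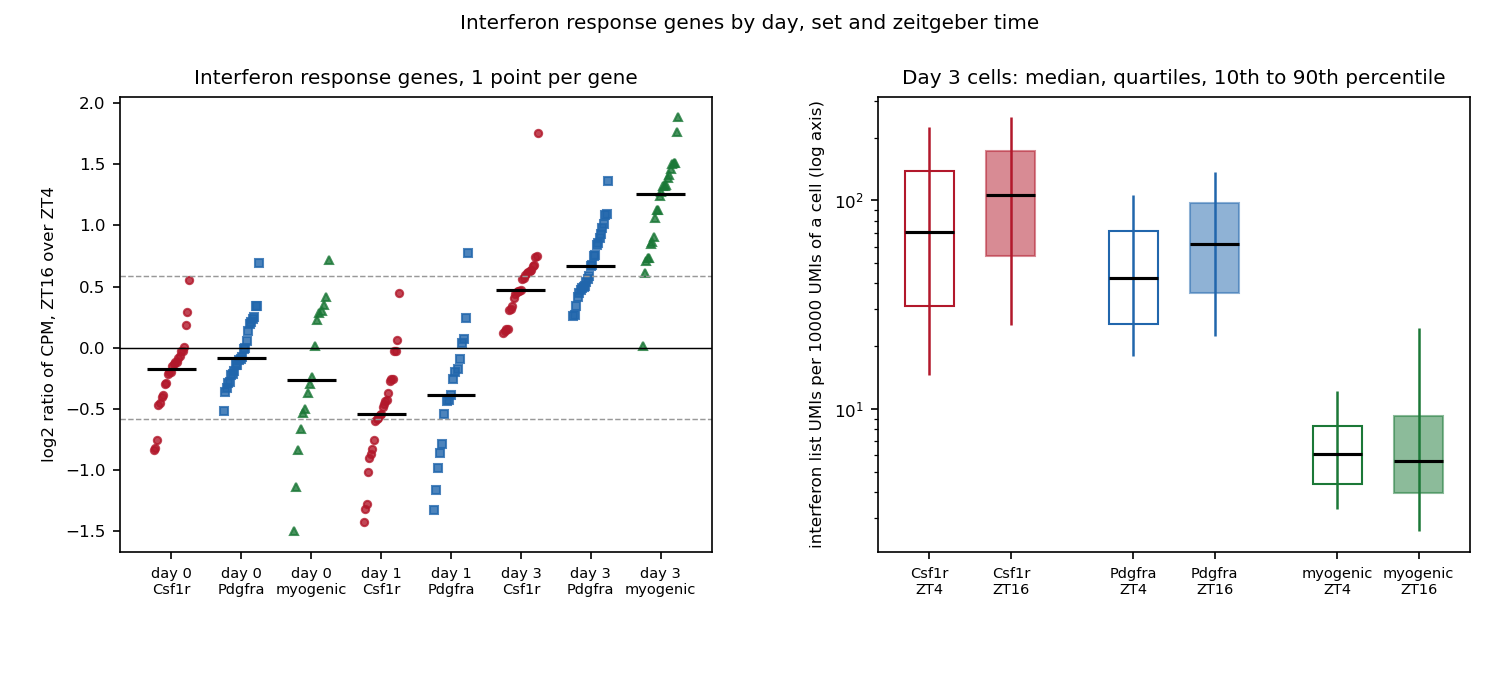
Left, the log2 ratio of CPM at ZT16 over ZT4 for each measured interferon-response gene by day and set, with medians as bars and dashed lines at 1.5-fold. Right, UMIs of the list per 10000 UMIs of each day 3 cell on a log axis (box, quartiles; whisker, 10th to 90th percentile; open, ZT4; filled, ZT16). The day 3 medians of 0.47, 0.67 and 1.25 lie above 0 and those of days 0 and 1 below it, and in the myogenic cells the upper whisker, but not the median, is higher at ZT16.

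On the earlier days the list lay on the other side of 0. Its median was -0.17, -0.08 and -0.27 in the 3 sets on day 0, and -0.54 and -0.39 in the Csf1r and Pdgfra sets on day 1, where the myogenic set had too few cells. Isg15 in the Csf1r set, for example, was 188 CPM at ZT4 and 134 at ZT16 on day 1. Of the 26 genes shifted up alike on day 3, 3 of 23 measured in the Csf1r set and 4 of 25 in the Pdgfra set were also at least 1.5-fold higher on day 0, against 3.74% and 6.56% of all genes. On day 1 the counts were 4 of 23 and 1 of 8, against 4.78% and 5.5%. On the opposite side by as much were 1 and 1 of them on day 0, and 3 and 1 on day 1.

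In single cells the level in the Csf1r and Pdgfra sets was shifted as a whole. The median cell of the Csf1r set had 70.5 UMIs of the list per 10000 at ZT4 and 106 at ZT16, and that of the Pdgfra set 42.4 and 61.6. The median myogenic cell had 6.11 and 5.65, while the 90th percentile went from 12.2 to 24.5. Above 20 per 10000, a limit set with the values known, were 31 of 617 myogenic cells at ZT4 (5.02%, exact binomial interval 3.44 to 7.06) and 52 of 447 at ZT16 (11.6%, 8.81 to 15.0). The cut divides cells by the list itself, so these shares describe its spread over cells and support nothing further. In the myogenic cells not above the cut, the list sum was 644 CPM at ZT4 and 613 at ZT16. Some members were higher at ZT16 in those cells too. Isg15 was 5.57 and 10.1 CPM, Rsad2 6.48 and 11.5, Irf7 2.16 and 4.35, and Stat2 1.77 and 3.51, from 45 and 58 UMIs. Most other members were not looked at singly there.

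The myogenic cells with high interferon-response levels had fewer UMIs, with medians of 29312 at ZT4 and 27471 at ZT16 against 46733.5 and 46043 in the other myogenic cells. Pax7, the satellite cell factor, was 73.9 CPM in them against 37.3 at ZT4, and 105 against 43.2 at ZT16. Myf5, an early myogenic factor, was 83.0 against 36.5 and 113 against 35.9. Of the 3 genes of the set's own rule, Myog, which marks commitment to fusion, was 709 against 875 and 614 against 862. Myod1 was 380 against 402 and 275 against 480, while Cdh15 was higher, at 304 against 212 and 337 against 227. The rule selected cells on these genes, so their values are not findings. The cells also carried more Col1a1, at 140 against 14.6 CPM and 286 against 12.5. Lyz2, a macrophage marker, was also higher in them, at 327 against 67.1 CPM at ZT4 and 215 against 65.1 at ZT16. C1qb was 154 against 16.1 CPM at ZT16 but 9.11 against 13.6 at ZT4. Pdgfra was higher in them at both times, from 11 UMIs at ZT4 and 9 at ZT16. Pecam1, an endothelial gene, had 0 UMIs in them at ZT4 and 4 at ZT16. Their median level of the macrophage markers together was slightly higher at ZT4 and slightly lower at ZT16. That of the fibro-adipogenic markers was higher at both times, at 4.90 against 1.05 UMIs per 10000 at ZT4 and 5.22 against 0.888 at ZT16. The myogenic markers were at 15.4 against 16.5 and 15.4 against 16.4. The part that transcripts of other cells play here was not tested.

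Levels of the list in the myogenic set were low beside those of the other sets. The median member stood at 3.58% of its Csf1r-set level at ZT4 and 5.88% at ZT16, and the macrophage markers at 0.607% and 0.825%. When a gene had to reach 10% of its level in the highest set, 1 list member, Ifitm3, remained in the myogenic set. In the Pdgfra set the corresponding values were 46.3% and 46.8% for the interferon list and 0.508% and 0.937% for the macrophage markers, so the list's level there stood far above that of the macrophage markers at both times.

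Promoters of these genes were searched for the core of the interferon-stimulated response element, TTCNNTTTC, on both strands, in the 300 bases from 250 before to 50 after the RefSeq start site (GRCm38.p6). It was present for 14 of the 19 list members with a window (73.7%), for 6 of 17 genes shifted up alike (Apol9a, Apol9b, Gbp3, Ide, Rsad2 and Stat2) and for 9.76% of 27025 windows. A match describes the letters and is not evidence of binding. The 250 bases before the start site are shown for Rsad2 and Isg15 as a member just inside and a member just outside the rule, with matches in capitals. Rsad2 (chr12:26456453-26456702, minus strand) has 1 match 119 bases before the start. Isg15 (chr4:156200819-156201068, minus strand) has 3 that overlap, and their first bases lie between 78 and 66 bases before it.
Rsad2: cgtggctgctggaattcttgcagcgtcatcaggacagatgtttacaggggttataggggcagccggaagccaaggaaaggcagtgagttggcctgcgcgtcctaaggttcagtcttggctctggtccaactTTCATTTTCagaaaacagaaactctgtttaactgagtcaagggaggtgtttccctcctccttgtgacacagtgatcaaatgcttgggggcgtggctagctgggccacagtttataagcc
Isg15: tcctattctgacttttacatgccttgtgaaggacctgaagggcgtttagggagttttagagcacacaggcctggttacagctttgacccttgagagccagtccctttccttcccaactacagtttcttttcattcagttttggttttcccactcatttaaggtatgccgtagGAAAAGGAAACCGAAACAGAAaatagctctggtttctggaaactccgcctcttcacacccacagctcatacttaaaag

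Among the 13 genes lower in all 3 sets, the highest level was that of Gm10076, a gene model named here after its values were seen, at 1416 CPM at ZT4 and 643 at ZT16 in the Csf1r set. It had ratios of -1.14, -0.99 and -1.04 on day 3 and -1.42 and -1.26 on day 1. Ribosomal protein genes as a list had medians of -0.17, -0.02 and -0.02 over 80 to 82 measured genes.

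Hist1h2ap, a replication-dependent histone H2A gene, was 111 and 38.6 CPM in the Csf1r set, 49.2 and 24.0 in the Pdgfra set, and 477 and 191 in the myogenic set. Its log2 ratio in the Pdgfra set, -1.04, turned to 0.06 in stricter sets. These needed more UMIs of the set genes and, in the myogenic set, no UMI of Ptprc. The ratio turned to 0.27 without cells that carry markers of other cell types, an alternative chosen after seeing the data. Hist1h4d, a histone H4 gene, went the other way, with log2 ratios of 0.60, 0.84 and 0.78. Both belong to families of near-identical copies, so their counts are uncertain. Gstp1, a glutathione transferase with a close copy, was 26.2 and 13.6, 58.4 and 35.6, and 83.3 and 40.5 CPM.

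mt-Nd4l, a mitochondrially encoded subunit of complex I, was 153 and 67.5 CPM in the Csf1r set, 147 and 64.5 in the Pdgfra set, and 294 and 173 in the myogenic set. It was the strongest case in a group that lay on the same side throughout. All 13 mitochondrially encoded genes were below 0 in all 3 sets, against 2426 of all 10930 genes (22.2%), with medians of -0.23, -0.16 and -0.16. At least 1.5-fold lower were 3, 3 and 1 of them, against 2.97%, 2.42% and 0.551% of all genes with at least 100 UMIs. Of 34 nuclear genes of the respiratory chain, 30 were below 0 in all 3 sets, with medians of -0.19, -0.21 and -0.11, and 1 passed 1.5-fold, in the Pdgfra set. Cells under 0.5% mitochondrial UMIs were 1.23% of the Csf1r set at ZT4 and 2.83% at ZT16, 1.85% and 5.48% of the Pdgfra set, and 6.16% and 10.5% of the myogenic set. Without them mt-Nd4l stayed among 13 lower genes, all of them the same genes.

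Wdr89, which encodes a WD-repeat protein, was 59.98 and 25.6 CPM in the Csf1r set with a ratio of -1.23, and -0.95 and -0.93 in the others. Bloc1s1, a lysosome-related organelle gene, had ratios of -0.96, -1.02 and -0.82. Angptl4, a secreted inhibitor of lipoprotein lipase, was 21.8 and 9.90, 232 and 142, and 63.8 and 35.0 CPM. Grsf1, an RNA-binding protein of mitochondria, had ratios of -0.77, -0.88 and -0.71, and Acot1, an acyl-CoA thioesterase, of -0.61, -0.60 and -0.67. The ratios of Angptl4 on day 3 were -1.13, -0.71 and -0.86, whereas cells in no set gave -0.34. On day 0 Angptl4 was far lower at ZT16, at -3.48, -3.86 and -3.08. Of the 13 lower genes, 0 of 10 measured in the Csf1r set and 2 of 12 in the Pdgfra set were at least 1.5-fold lower on day 0, against 3.14% and 3.92% of all genes. On day 1 the counts were 5 of 13 and 5 of 8, against 6.2% and 12.4%. On the opposite side by as much were 1 and 1 of them on day 0, and 1 and 1 on day 1.

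Clock genes were compared as a group expected to differ with time of day in any cell type. The 5 Per and Cry repressors lay above 0 in every set on day 3, against 30.8% of all genes with at least 30 UMIs in each set. Their medians were 0.71, 0.92 and 0.68. At least 1.5-fold higher were 3, 4 and 3 of 5, against 2.26%, 3.3% and 5.73% of all genes with at least 100 UMIs. Per2 (chr1:91415982-91459324) differed most among the 5. It was 1.12 CPM at ZT4 and 3.51 at ZT16 in the Csf1r set, 3.38 and 15.1 in the Pdgfra set, and 0.907 and 2.31 in the myogenic set. The ratios were 1.64 (1.30 to 1.999), 2.14 (1.599 to 2.75) and 1.34 (0.59 to 2.14). It is absent from the 26 genes above because it did not have 100 UMIs in the myogenic set. Per1 had ratios of 0.41, 0.60 and 0.99, Per3 of 0.49, 0.92 and 0.42, Cry1 of 0.92, 1.08 and 0.15, and Cry2 of 0.71, 0.41 and 0.68.

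Nr1d1 (chr11:98767932-98775333), the nuclear receptor REV-ERBα that represses Arntl, was lower at ZT16 in the Pdgfra set, at 22.2 and 5.37 CPM (log2 -2.03, -2.55 to -1.57). It was 9.48 and 6.83 CPM in the Csf1r set (-0.47) and 6.27 and 5.22 in the myogenic set (-0.26). The counting intervals there were -0.64 to -0.31 and -0.64 to 0.11, and a difference between sets was not tested. Arntl itself had ratios of -0.14, -0.08 and 0.41, each with an interval that held 0. The output factors Tef (0.69, 0.69 and 0.41), Hlf (1.06, 1.69 and 0.81) and Dbp (0.39, 0.55 and 0.20) lay above 0 in all 3 sets. Of 7 clock output genes measured in all sets, 5 lay above 0 in each and 1 below 0 in each, against 30.8% and 22.2% of all genes. The list's medians were 0.13, 0.39 and 0.27, with 2 of 8, 2 of 7 and 1 of 7 genes at least 1.5-fold higher. The shares of all genes with at least 100 UMIs were 2.26%, 3.3% and 5.73%.

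On day 0 the same genes were farther apart between ZT4 and ZT16 in the Csf1r and Pdgfra sets. The Per and Cry median on day 0 was 1.48, 1.499 and 0.81 in the 3 sets. Per2 went from 1.85 to 36.9 CPM in the Csf1r set and from 2.04 to 51.5 in the Pdgfra set (4.29 and 4.65), Dbp had ratios of 1.997 and 2.29, and Arntl of -2.80 and -3.44. In the day 0 myogenic set Per1 was at -0.24, Dbp at -0.07 and Arntl at -0.87. The day 0 libraries also differed in cell division genes. A list of 20 genes of the G2 and M phases had medians of 0.52, 3.46 and 6.12 in the 3 sets, so the cells compared differed in more than clock genes. On day 1 the Per and Cry median was 0.12 in the Csf1r set and 0.35 in the Pdgfra set. With 1 library per group, a difference between days cannot be told apart from a difference between libraries. The E-box CACGTG, the site of the CLOCK and BMAL1 pair, was found in 2 of 4 Per and Cry windows (Cry1 and Per1) and in 8.09% of all windows. Cry1 (chr10:85185055-85185304, minus strand), with its E-box 60 bases before the start in capitals, is shown because it differed in the Csf1r and Pdgfra sets and hardly in the myogenic set.
Cry1: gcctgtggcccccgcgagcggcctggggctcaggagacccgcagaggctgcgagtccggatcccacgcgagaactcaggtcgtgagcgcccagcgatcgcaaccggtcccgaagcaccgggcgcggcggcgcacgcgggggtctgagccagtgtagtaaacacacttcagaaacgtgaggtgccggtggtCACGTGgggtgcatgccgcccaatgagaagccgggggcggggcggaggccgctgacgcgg

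**Figure D3:**
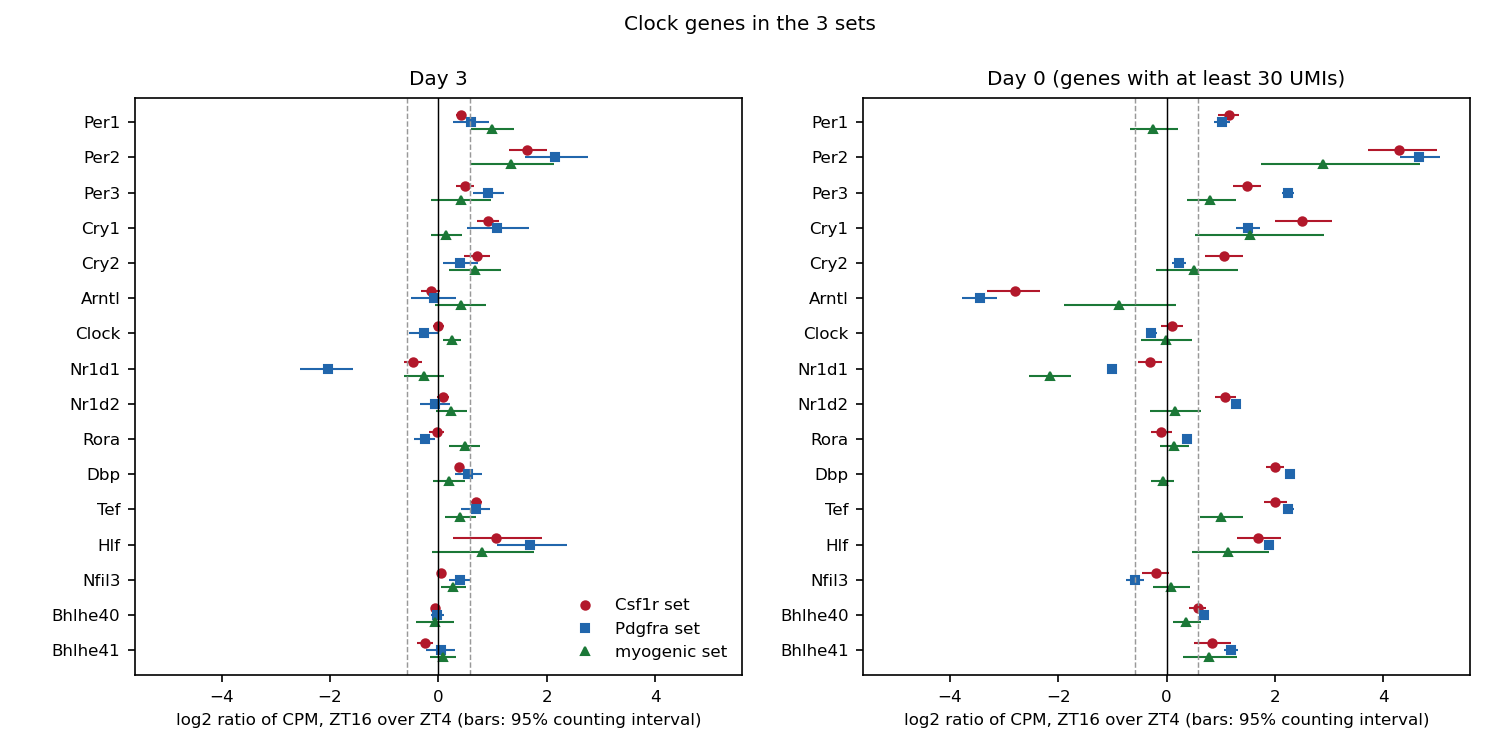
The log2 ratio of CPM at ZT16 over ZT4 for clock genes on day 3 (left) and day 0 (right), with 1 marker per set, bars for the 95% counting interval and dashed lines at 1.5-fold. Per2 stands highest on both days, and Arntl is near 0 on day 3 but at -2.80 and -3.44 in the Csf1r and Pdgfra sets on day 0.

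Cirbp, a cold-inducible RNA-binding protein whose transcript follows body temperature, was 51.7 and 22.2 CPM in the Csf1r set, 44.1 and 21.7 in the Pdgfra set, and 92.7 and 70.02 in the myogenic set. Its ratios were -1.22, -1.02 and -0.41 on day 3 and -1.41, -1.36 and -1.30 on day 0. The splicing factor Srsf5 had ratios of -0.72, -0.50 and -0.76. Over the list of 18 cold-inducible and splicing genes the medians were only -0.12, -0.11 and -0.08, and 2, 3 and 1 genes were at least 1.5-fold lower. The shares lower over all genes with at least 100 UMIs were 2.97%, 2.42% and 0.551%. Genes of glucocorticoid response gave no common direction, with medians of 0.04, 0.05 and 0.17. Within that list Fkbp5, an FK506-binding cochaperone, was 9.24 and 18.9 CPM in the Csf1r set (1.03).

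Chaperones of the endoplasmic reticulum lay mostly above 0, by small amounts. Of 19 measured genes 14 were above 0 in all 3 sets, with medians of 0.22, 0.16 and 0.25. At least 1.5-fold higher were 3, 1 and 4 of them, against 2.26%, 3.3% and 5.73% of all genes with at least 100 UMIs. Hspa5, the lumenal chaperone BiP, was 406 and 636 CPM in the Csf1r set, 624 and 714 in the Pdgfra set, and 285 and 495 in the myogenic set (0.65, 0.19 and 0.80). Xbp1, a factor of the unfolded protein response, had ratios of 0.53, 0.35 and 0.71. Of 20 immediate early genes, which respond to handling of cells, 14 were above 0 in all 3 sets, with medians of 0.13, 0.08 and 0.23. Over all genes with at least 30 UMIs, 30.8% were above 0 in all 3 sets. The all-gene medians at that floor were -0.02, 0.02 and 0.11, so part of the small myogenic medians is shared by all genes.

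**Figure D4:**
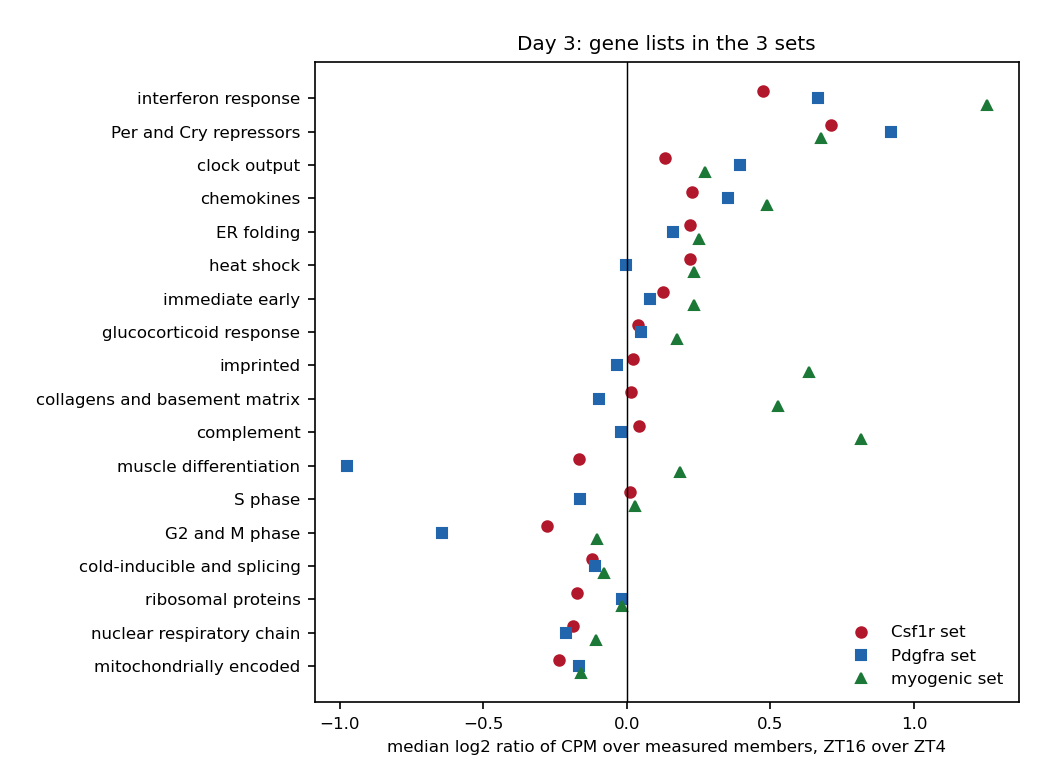
The median log2 ratio of CPM at ZT16 over ZT4 on day 3 is plotted for the measured genes of 18 lists, with 1 marker per set. Interferon response and the Per and Cry genes lie to the right in all sets, mitochondrially encoded genes to the left in all sets, and imprinted, collagen and complement genes to the right in the myogenic set.

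A gene was counted as shifted in 1 set only when it passed 1.5-fold in that set and stayed within 1.2-fold in both others. In the Csf1r set 1 gene (0.0115%), Slco3a1, was higher only there and 11 (0.127%) lower only there. In the Pdgfra set 45 (0.519%) were higher and 56 (0.645%) lower. In the myogenic set 121 (1.39%) were higher and 4 (0.0461%) lower. The sets differ in UMIs, with 83659687 and 73802641 in the Csf1r set but 10055179 and 8014908 in the Pdgfra set, so small sums scatter more in the latter. A gene inside 1.2-fold in one set and past 1.5-fold in another was not tested for a difference between sets.

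**Figure D5:**
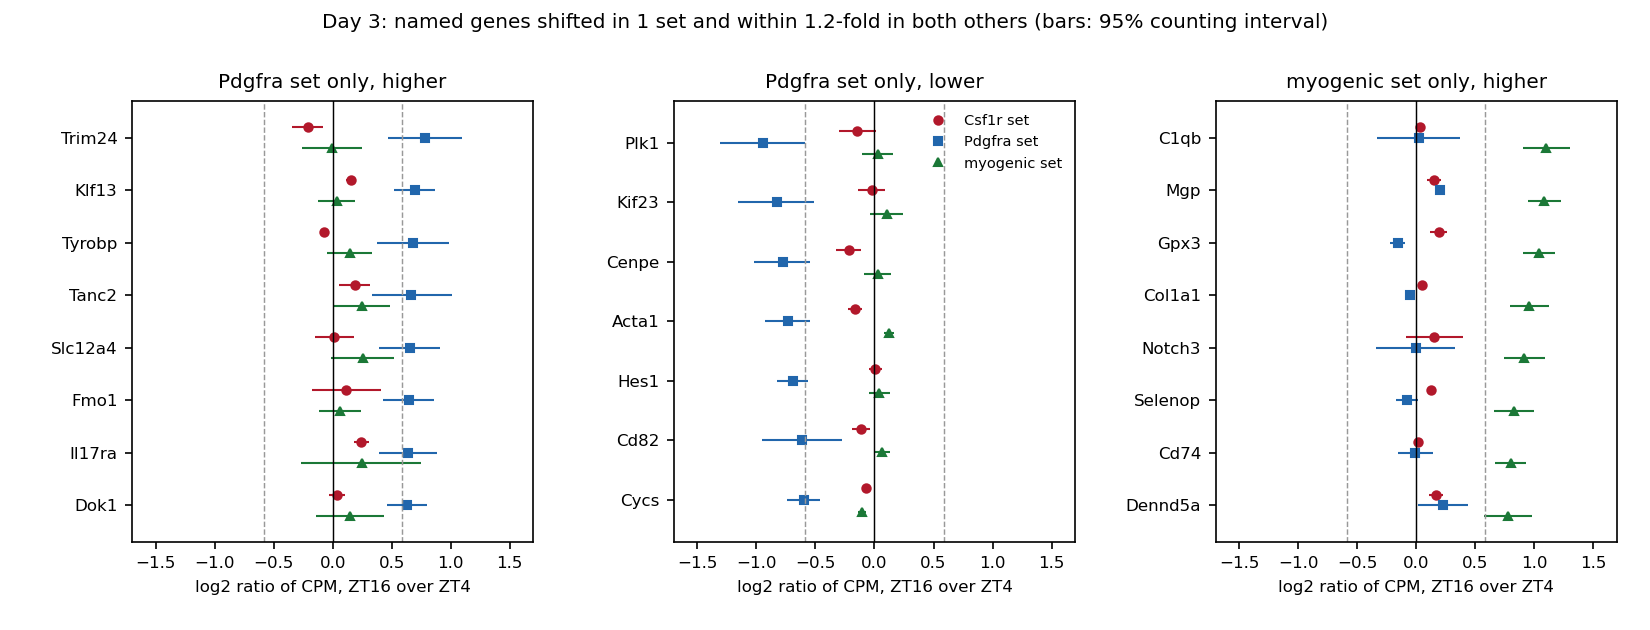
The log2 ratio of CPM at ZT16 over ZT4 on day 3 for the named genes shifted in the Pdgfra set only (left and centre) and in the myogenic set only (right), with 1 marker per set, bars for the 95% counting interval and dashed lines at 1.5-fold. Markers of both other sets sit near 0, and several Pdgfra set intervals cross the dashed line.

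The count for the Csf1r set depended on how the sets were drawn, since the 12 genes of both directions became 47 with cells of more than 1 set left out, 33 in stricter sets, 33 without cells carrying markers of other cell types, 28 with equal weight per cell and 5 without cycling cells. Sp3os, an opposite-strand transcript of the Sp3 locus, was the only one named by the rule, at 30.4 and 19.999 CPM in the Csf1r set (-0.60), with -0.12 and -0.15 in the Pdgfra and myogenic sets. Cells in no set gave -0.59. Beyond the genes shifted alike, a ranking took named genes with at least 50 CPM in 1 library of the Csf1r set. Its largest higher ratios were those of Gda, a guanine deaminase (43.8 and 83.9 CPM), Oas3, an oligoadenylate synthetase (64.0 and 120), AY036118 (given above) and Abcg1, a cholesterol exporter (127 and 215). Some sparser genes had larger ratios, such as Ifi44 (1.75). On the lower side were Gpr183, an oxysterol receptor that guides dendritic and B cells (119 and 62.8 CPM), and Pkib, a protein kinase A inhibitor (74.0 and 38.0). Both genes were little expressed in the other sets, at under 1.2 CPM. In cells in no set Gpr183 was 113 and 121 CPM (0.09) and Pkib 92.5 and 78.6 (-0.23).

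In the Pdgfra set the genes lower only there included cell division genes. Plk1, a mitotic kinase, was 22.4 and 11.6 CPM (-0.94), Kif23, a kinesin of cytokinesis, 26.7 and 15.0 (-0.83), and Cenpe, a kinetochore motor, 47.1 and 27.4 (-0.78). Of 20 genes of the G2 and M phases, 12 were at least 1.5-fold lower in the Pdgfra set (median -0.64), against 1 in the Csf1r set (-0.28) and 0 in the myogenic set (-0.10). The share lower over all genes with at least 100 UMIs in the Pdgfra set was 2.42%. Thinned to 3000 UMIs per cell, the share of cells with at least 3 UMIs of these genes was 19.1% at ZT4 (15.5 to 23.2) and 11.7% at ZT16 (8.51 to 15.6) in the Pdgfra set. The unthinned shares there were 36.6% and 32.6%, and 8 and 6 cells were too shallow to thin. In the Csf1r set the thinned shares were 8.62% and 5.83% (unthinned 18.0% and 13.9%), and in the myogenic set 64.9% and 62.4% (unthinned 90.4% and 88.8%). The 56 genes lower only in the Pdgfra set numbered 28 with cells of more than 1 set left out and 29 in stricter sets. They numbered 23 without cells carrying markers of other cell types. The 45 higher only there numbered 60, 41 and 48. The part that cells also in the myogenic set play in the cell division genes was not tested.

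Hes1, a target of Notch signalling, was 144 and 88.7 CPM in the Pdgfra set (-0.69) and flat in the others (0.01 and 0.04). Of the 56 genes lower only in the Pdgfra set, 43 had their highest level in the myogenic set. The same count over all genes was not taken. Muscle genes were among the largest lower values in the Pdgfra set. Gal, the neuropeptide galanin, was 60.8 and 6.61 CPM (-3.19), Eno3, the muscle enolase, 65.4 and 14.3 (-2.18), and Des, the muscle intermediate filament desmin, 89.5 and 33.2 (-1.43), although all were most abundant in the myogenic set. Of 20 measured muscle differentiation genes 13 were at least 1.5-fold lower in the Pdgfra set (median -0.97), against 2.42% of all genes with at least 100 UMIs. The summed level of 10 myogenic markers there was 171 and 53.7 CPM. Cells that met the rules of both the Pdgfra and the myogenic set numbered 15 at ZT4 and 3 at ZT16. With cells that carry markers of other cell types left out, an alternative chosen after seeing the data, Des and Eno3 were at 0.12 and 0.09 and Acta1 at 2.79. Eln, which encodes elastin, was 121 and 60.4 CPM in the Pdgfra set.

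Genes higher only in the Pdgfra set had smaller ratios. Trim24, a transcriptional coregulator, was 14.5 and 24.95 CPM (0.78), Klf13, a zinc-finger factor, 49.3 and 79.9 (0.69), Fmo1, a flavin monooxygenase, 32.0 and 50.03 (0.64), and Il17ra, the receptor for interleukin 17, 25.4 and 39.4 (0.64). Tyrobp, an adaptor of myeloid receptors, was 16.2 and 26.0 CPM there and 2770.01 to 2914 CPM in the Csf1r set. In the Pdgfra set 5 of 9 macrophage markers were at least 1.5-fold higher (summed level 129 and 191 CPM), against 3.3% of all genes with at least 100 UMIs. In exclusive sets, with cells that met more than 1 rule left out, Tyrobp was at -0.27. Summed endothelial markers were 5.47 and 33.2 CPM in the Pdgfra set. Dhrs3, a retinaldehyde reductase, was 35.6 and 79.4 CPM in the Pdgfra set (1.16).

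The 121 genes higher only in the myogenic set mostly had higher levels in another set. The highest level was in the Pdgfra set for 75, in the Csf1r set for 43 and in the myogenic set for 3, and 49 stood under 10% of that highest level. The same counts over all genes were not taken, so these only describe the 121 genes. C1qb, a macrophage complement gene, was 13.4 and 28.7 CPM in the myogenic set (1.10) against 3147 to 3222 CPM in the Csf1r set. Col1a1, the main fibrillar collagen, was 19.2 and 37.4 CPM (0.96) against 7195 to 7486 CPM in the Pdgfra set. Mgp, a matrix protein, was 28.2 and 59.9 CPM, Gpx3, a secreted peroxidase, 28.0 and 57.6, and Cd74, the invariant chain of antigen presentation, 33.0 and 57.4. Of 21 collagen and basement matrix genes 9 were at least 1.5-fold higher in the myogenic set (median 0.53), and of 10 complement genes 7 (0.82). The share over all genes with at least 100 UMIs there was 5.73%. The summed fibro-adipogenic markers in that set were 202 and 279 CPM and the macrophage markers 141 and 175. In exclusive sets C1qb and Cd74 were at -0.06 and -0.21, and without cells carrying markers of other cell types Col1a1 was at -0.22.

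Notch3, a receptor of satellite and mural cells, was 17.9 and 33.7 CPM in the myogenic set (0.91), about as high as or above its level in the Pdgfra set (17.0 at both times). The imprinted noncoding RNA H19, abundant in myoblasts, was 118 and 279 CPM in the myogenic set (1.25, 1.18 to 1.31), with 0.49 in the Csf1r set and 0.02 in the Pdgfra set. The H19 ratio was also above 0 on day 0, at 0.53, 0.94 and 1.01 in the Csf1r, Pdgfra and myogenic sets. The day 0 libraries also differed in G2 and M phase genes, whose myogenic median there was 6.12. How far the cells compared on day 0 differ in state was not tested. Of 14 imprinted genes measured in the myogenic set 8 were at least 1.5-fold higher (median 0.64), against 5.73% of all genes with at least 100 UMIs. The medians in the Csf1r and Pdgfra sets were 0.02 and -0.03. Peg3, an imprinted zinc-finger factor, was 225 and 384 CPM in the myogenic set (0.77), 146 and 92.5 in the Pdgfra set (-0.66) and 24.1 and 25.9 in the Csf1r set (0.10). The muscle differentiation genes themselves had a median of 0.18 in the myogenic set, with 2 of 22 at least 1.5-fold higher. The median over all genes with at least 30 UMIs in that set was 0.11.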

How the data were processed

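Raw UMI counts in 1 matrix of 32285 genes per library, as the authors deposited them, were written by Cell Ranger 6.1.2 per the file headers, whereas Cell Ranger 1.0.0 and mm10 stand in the submitters' processing notes. No annotation release is named there. The libraries were prepared with 10x 3′ chemistry, per the labels' protocols.

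Barcodes with at least 500 UMIs, 200 genes and at most 10% mt- UMIs were kept. UMIs were summed per set and library, scaled to CPM and compared as log2 ratios with 0.5 UMI added to each count. Set rules read the genes that define them, so those 6 genes were not counted as findings. The members, the lists and the rule for naming genes (up to 12 per direction shifted alike, up to 8 per direction in 1 set only, of opposite sign or largest, and examples from lists) were chosen with earlier results of these data known. Lists took members with at least 30 UMIs. Cells carry 1 library's conditions and are not replicates. Of the genes shifted alike, 1 in each direction is counted but not reported here. There were 15 planned and 3 added alternatives. The steps were tested on simulated data, where 70 of 70 genes made 2-fold higher in all sets were recovered. Those genes had more UMIs than the floor of 100, and the simulation held counting error only. It does not show how well genes near 1.5-fold or near the floor are recovered. Coordinates are from GENCODE vM21 (GRCm38), with 762 of 762 genes found. Python 3.11.15, numpy 2.4.6, scipy 1.17.1, pandas 2.3.3, scanpy 1.11.5 (doublet scores) and matplotlib 3.10.9 were used.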

Additional observations from a re-analysis of the deposited data

Results flagged for a closer look

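Some genes lay at least 1.5-fold to opposite sides in 2 sets on day 3, on the log2 ratio of ZT16 over ZT4. These differences between sets were not tested, since each set has 1 library per time. Between the myogenic set and the Csf1r set, Mb, which encodes myoglobin, was at 1.996 and -0.90, Cox8b, a cytochrome c oxidase subunit of muscle, at 1.19 and -0.74, Pcdh17, a protocadherin, at 0.98 and -0.60, and Cldn5, an endothelial tight junction gene, at 0.83 and -0.81. Between the Pdgfra set and the Csf1r set, Sfrp4, a secreted WNT antagonist, was at 0.96 and -0.68, Igf2, an imprinted growth factor, at 0.90 and -0.67, and Cmah, a sialic acid hydroxylase, at 0.87 and -0.65. Rtl3 was at 0.97 in the myogenic set and -1.02 in the Pdgfra set. Most of these genes are sparse in the Csf1r set, where Sfrp4 was 1.00 and 0.623 CPM, Igf2 1.02 and 0.637 and Mb 5.33 and 2.85. In the Csf1r set some of these signs turned with the settings. Sfrp4 was at 1.25 in exclusive sets and 1.34 in stricter sets, Pcdh17 at 0.0555 without dendritic cells, and Pcdh17 and Mb at 0.88 and 0.0449 without cells carrying other cells' markers, so the opposite signs were not kept there.

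The interferon-response list had opposite signs on days 3 and 1. Its median was 0.47 in the Csf1r set and 0.67 in the Pdgfra set on day 3, and -0.54 and -0.39 on day 1. The difference between days was not tested.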

How the results depend on the processing

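No paired analysis was possible because each group is 1 library. The 26 genes higher in all 3 sets numbered 16 in exclusive sets, 3 with cells thinned to 3000 UMIs, 14 with at least 300 UMIs per gene, 51 with at least 30, 5 at 2-fold, 13 where a gene had to reach 10% of its level in the highest set, 5 without cycling cells and 12 without cells carrying other cells' markers. The 13 lower genes numbered 5 thinned, 20 with at least 30 UMIs, 2 at 2-fold and 5 without cycling cells. Cycling cells had at least 3 UMIs of G2 and M phase genes, and leaving them out kept 59 and 50 myogenic cells. Stricter sets required about 2 times the UMIs of the set genes. Genes shared with the main rule were 14 of 16 in exclusive sets and 12 of 12 without other cells' markers.

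Genes in the Csf1r set only, 12 in both directions, numbered 47 in exclusive sets, 33 in stricter sets, 28 with equal weight per cell, 20 without mitochondrial, ribosomal protein and Malat1 UMIs, 27 without dendritic cells, 33 without other cells' markers, 5 without cycling cells, 3 thinned, 4 with at least 300 UMIs, 34 with at least 30 and 0 at 2-fold. The 101 in the Pdgfra set only numbered 24 thinned, 14 with at least 300 UMIs, 219 with at least 30, 13 at 2-fold and 5 without cycling cells. The 125 in the myogenic set only numbered 35, 53, 234, 10 and 71 in the same order, 64 with the 10% level rule and 67 centred on the median. Genes past the fold in the Csf1r set (660) numbered 436 thinned, 346 with at least 300 UMIs, 1219 with at least 30 and 105 at 2-fold. Those in the Pdgfra set (542) numbered 188, 192, 1201 and 86. Those in the myogenic set (650) numbered 178, 263, 1303 and 116, and 153 without cycling cells. By construction a higher UMI floor tests fewer genes and a higher fold calls fewer of them. Thinning and leaving out cells lower the UMI sums while the floor stays at 100 UMIs, so fewer genes can reach it. The numbers tested under those settings are not given, so falls in the counts there do not measure lost shifts. For the other settings the cause was not tested.

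The split of higher against lower was 57.8% higher in the Pdgfra set and 45.7% when thinned. In the myogenic set it was 91.2%, 77.8% centred, 76.4% thinned and 43.1% without cycling cells. In the Csf1r set it was 43.2%, 56.7% without Gm42418 and 31.3% without mitochondrial, ribosomal protein and Malat1 UMIs. The interferon median ranged from 0.42 to 0.55 in the Csf1r set, 0.53 to 0.73 in the Pdgfra set and 0.02 to 1.34 in the myogenic set, with 0.42 there when thinned.

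Some values changed sign. Without cycling cells these were the clock output median (-0.31) and the chemokine median (-0.93) in the myogenic set, Ifit3 (-0.0891) and Meg3 (-0.19) there, Cd82 (0.0125) and Cycs (0.14) in the Pdgfra set, and Dqx1 (0.15) and Mirg (-0.0877) in the Csf1r set. Thinned, they were the chemokine median (-0.46), Cxcl10 (-0.0292) and Xaf1 (-0.55) in the myogenic set and Abcg1 (-0.16), Cycs (0.27) and Tanc2 (-0.29) in the Pdgfra set. Without other cells' markers they were the muscle differentiation median (0.12), Acta1 (2.79), Des (0.12), Eno3 (0.0922) and Hist1h2ap (0.27) in the Pdgfra set, Cd74 (-0.18), Col1a1 (-0.22) and Ly6a (-0.0508) in the myogenic set, and Dqx1 (0.10), Mb (0.0449) and Pcdh17 (0.88) in the Csf1r set. In exclusive sets they were C1qb (-0.0570) and Cd74 (-0.21) in the myogenic set, Cd82 (0.0258) and Tyrobp (-0.27) in the Pdgfra set, and Dqx1 (0.0254), Eln (0.0394) and Sfrp4 (1.25) in the Csf1r set. In stricter sets they were Dqx1 (0.0391) and Sfrp4 (1.34) in the Csf1r set and Hist1h2ap (0.0582) in the Pdgfra set, and without dendritic cells Dqx1 (0.10) and Pcdh17 (0.0555). Leaving out other cells' markers, Gm42418 or cells under 0.5% mitochondrial UMIs were chosen after seeing the data. Small counts limit single values, such as that of Ccn2 in the myogenic set, which rests on 11 UMIs at ZT4.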

Other observations

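Cells with under 0.5% mitochondrial UMIs differed from the rest of their set in more than that share. In the myogenic set they had medians of 7768 UMIs at ZT4 (38 cells) and 6739 at ZT16 (47 cells), against 47198 and 46549 in the others. Malat1, a nuclear noncoding RNA, was at a median of 0 per 10000 UMIs in them at both times, against 21.0 and 26.3. In the Csf1r set there were 77 such cells at ZT4 and 160 at ZT16.

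In other genes of the glucocorticoid list, Klf9, a Krüppel-like factor, lay above 0 in all 3 sets (0.73, 0.42 and 0.92), while Tsc22d3, the glucocorticoid-induced leucine zipper, was at 0.52 and 0.76 in the Csf1r and Pdgfra sets and -0.06 in the myogenic set.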
